A study of Mus musculus with 22 samples.

Results

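Kinesins are motor proteins that walk along or take apart microtubules, and the data here give the RNA level of the whole family in cultured neural stem cells whose O-GlcNAc transferase (OGT) was depleted or inhibited. Members were taken by symbol, every gene named Kif with a number and an optional letter a to c, or Kifc with a number, which gave 40 of the 24411 genes in each of 2 expression tables. Of these, 12 are kinesins of mitosis and cytokinesis (Kif2c, Kif4, Kif11, Kif14, Kif15, Kif18a, Kif18b, Kif20a, Kif20b, Kif22, Kif23 and Kifc1) and 28 are the others, mostly motors of cargo transport and cilia. The naming rule leaves out the kinesin Cenpe.

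RNA was sequenced from primary neural stem cells grown from adult mouse hippocampus in medium with EGF, bFGF and B27. In the knockdown arm, cells carried a lentiviral hairpin against luciferase (shLuc, n = 6) or against Ogt (shOgt, n = 5), given at 10 viral particles per cell and left for 3 days. In the inhibitor arm, cells were kept for 24 h with DMSO vehicle (n = 6) or with the OGT inhibitor OSMI-1 at 12.5 µM (n = 5). OGT is the enzyme that modifies intracellular proteins with the sugar O-GlcNAc. Ogt RNA stood at 836 ± 89.8 normalized counts (SD) in shLuc and 424 ± 63.9 in shOgt (log2 fold change -0.98 ± 0.11, limma adjusted p = 1.1e-06), and at 455 ± 37.6 in vehicle and 599.9 ± 42.5 in OSMI-1 (0.40 ± 0.08, adjusted p = 0.001). Knockdown-arm libraries held 7.22 to 13.2 M recovered reads and inhibitor-arm libraries 4.52 to 5.93 M reads, apart from OSMI-1 replicate 4 at 12.8 M reads. Ribosomal precursor RNA (Rn45s) made up between 4.81 and 14.2% of each inhibitor-arm library but between 0.921 and 1.25% of each knockdown-arm library. Nes, a defining marker of neural stem cells, held group means of 2892 to 5591 counts, Sox9 of 961 to 2182, and the microglial list summed to at most 20.6 counts in any library. Nothing in the labels ties the libraries to separate animals or cultures, so a p-value here measures how much these libraries vary, and that spread may be technical.

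In a dividing cell, kinesins push the spindle poles apart, move and align chromosomes, and build the midzone where the cell is cut apart. Their genes are switched on late in the cell cycle, and many promoters of this class carry a cell cycle homology region (CHR) element, with the core TTTGAA, downstream of CCAAT boxes. Transport kinesins carry vesicles, mitochondria and ciliary cargo along the microtubules of cells that divide and of cells that do not.

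Promoter sequences from RefSeq (build GRCm38.p6) were found for 11 of the 12 mitotic kinesins and for 21 of the other 28. The sequences below run from 60 bases before the annotated start to 30 bases of the transcript. All but those of Kif18a and Kif3a hold TTTGAA, the motif whose share differed most between the mitotic kinesins and the rest of the family. Those of Kif18a and Kif3a, without it, are shown beside them. Capitals mark TTTGAA or CCAAT on either strand, so that TTCAAA and ATTGG are the reverse matches.
Kif11 (chr19:37376322-37376411, + strand): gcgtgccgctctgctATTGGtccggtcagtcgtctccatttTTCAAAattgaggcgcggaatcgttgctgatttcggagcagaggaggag
Kif15 (chr9:122951021-122951110, + strand): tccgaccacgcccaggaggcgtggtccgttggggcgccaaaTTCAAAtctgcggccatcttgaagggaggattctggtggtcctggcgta
Kif22 (chr7:127042391-127042480, - strand): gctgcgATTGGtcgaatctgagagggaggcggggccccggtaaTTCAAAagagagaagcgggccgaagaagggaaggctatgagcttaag
Kif18b (chr11:102925095-102925184, - strand): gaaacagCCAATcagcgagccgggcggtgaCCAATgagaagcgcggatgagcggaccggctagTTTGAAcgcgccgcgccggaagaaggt
Kifc1 (chr17:33890604-33890693, - strand): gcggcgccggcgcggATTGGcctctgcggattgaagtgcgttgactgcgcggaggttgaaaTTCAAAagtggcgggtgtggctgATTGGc
Kif23 (chr9:61946770-61946859, - strand): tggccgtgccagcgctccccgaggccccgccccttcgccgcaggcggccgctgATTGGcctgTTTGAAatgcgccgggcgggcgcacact
Kif20b (chr19:34922298-34922387, + strand): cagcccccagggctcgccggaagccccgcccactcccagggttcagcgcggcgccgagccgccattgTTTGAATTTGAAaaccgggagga
Kif4 (chrX:100626005-100626094, + strand): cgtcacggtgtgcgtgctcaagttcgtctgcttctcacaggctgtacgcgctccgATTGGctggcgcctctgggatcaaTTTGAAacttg
Kif18a, with no match (chr2:109280678-109280767, + strand): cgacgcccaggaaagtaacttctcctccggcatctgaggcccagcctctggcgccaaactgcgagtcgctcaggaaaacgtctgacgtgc
Kif3a, a transport kinesin (chr11:53567309-53567398, + strand): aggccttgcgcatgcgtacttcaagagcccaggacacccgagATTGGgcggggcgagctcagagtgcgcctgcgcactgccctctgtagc

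Over the full 300 bases (250 before the start and 50 after), TTTGAA was present on either strand in 10 of 11 mitotic kinesins (90.9%), in 3 of 21 other kinesins (14.3%) and in 20.2% of 27025 genes with a promoter. CCAAT was present in 7 of 11 mitotic kinesins (63.6%) and 8 of 21 others (38.1%), against 41.1% of all genes. Both motifs stood together in 7 mitotic kinesins (63.6%) and in 2 others (9.52%), against 7.97% of all genes, and in no kinesin did the 2 motifs overlap. Counted per promoter, 17.9% of all 32851 held TTTGAA, 37.4% held CCAAT and 6.95% held both. Of the 9304 genes with a promoter that were tested after knockdown, 13.8% held TTTGAA, 43.6% CCAAT and 5.85% both. The TTTGAA share of the other kinesins was thus near that of the tested genes. The matches of the mitotic kinesins lay close to the start, counted with the first transcribed base as 1 and no zero. TTTGAA began within 25 bases of the start in 8 of 11 mitotic kinesins (72.7%) and 1 of 21 others (4.76%). The share was 3.1% of all genes and 1.97% of those tested after knockdown. This distance was chosen after the positions had been seen. Kif14 and Kif2c held TTTGAA farther away, beginning at -228 and -103, and Kif18a held neither motif. The start used lay inside the outer limit of the RefSeq gene by 1547 bases for Kif14 and 3852 for Kif2c. For the other 9 mitotic kinesins it was at most 47. Among the other kinesins, the start lay 1668 bases inside for Kif3a, 2234 for Kif26a and 431 for Kif21a. Kif27 and Kif1a, which count among the others with TTTGAA, held it at starts 9798 and 19559 bases inside. For Kif14, Kif2c, Kif3a, Kif26a, Kif21a and Kif27 the stretches before the outer limits were not searched. A match describes the letters of the window and is not a measured binding site.

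**Figure D1:**
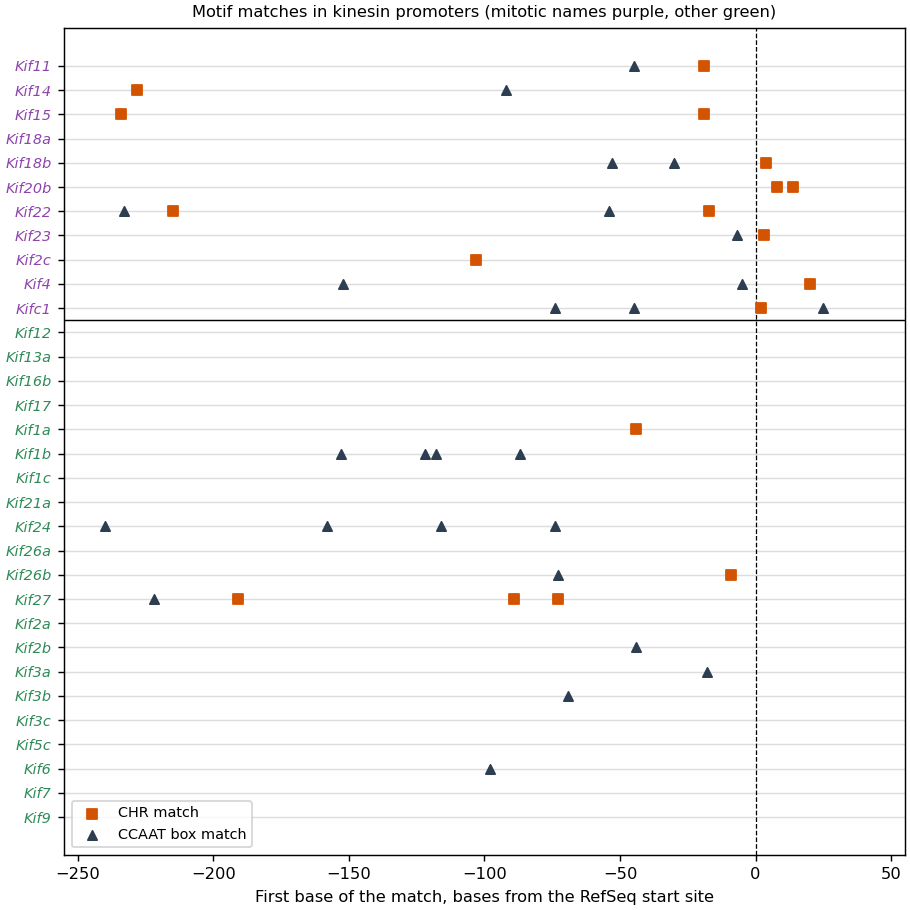
Position of each TTTGAA (CHR, squares) and CCAAT (triangles) match in the promoters of 11 mitotic (upper rows) and 21 other kinesins (lower rows); the x axis is the first base of the match in bases from the RefSeq start. In 8 of the 11 mitotic kinesins a square lies within 25 bases of the dashed start line, and in 1 of the others (Kif26b).

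The mitotic kinesins were lower in both arms. After Ogt knockdown 11 of 12 were called lower, where 16.4% of the 12136 genes tested were called lower and 15.4% higher; after OSMI-1 it was again 11 of 12, where 13.2% of 11349 genes were lower and 11.6% higher. A call means an adjusted p under 0.05 in a limma test of log2(normalized count + 1) over all genes. Their median log2 fold change was -0.68 after knockdown (range -1.63 to -0.09; median of all genes 0.01) and -1.16 after OSMI-1 (range -1.77 to -0.34; median of all genes 0.00). The exceptions differed, Kif23 in the knockdown arm and Kifc1 in the inhibitor arm, so 10 of 12 were called lower in both, against 5.64% of 11269 genes tested in both. Every treated library lay below every control library for 9 mitotic kinesins after knockdown and for 11 after OSMI-1, a pattern seen in 9.96% and 7.71% of all genes tested. In bulk RNA, fewer cells in mitosis and less kinesin RNA per cell cannot be told apart. Mki67, a marker of cycling cells, moved with them, from 1286 ± 155 to 636 ± 122 counts after knockdown and from 738 ± 170 to 287 ± 49.0 after OSMI-1.

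**Figure D2:**
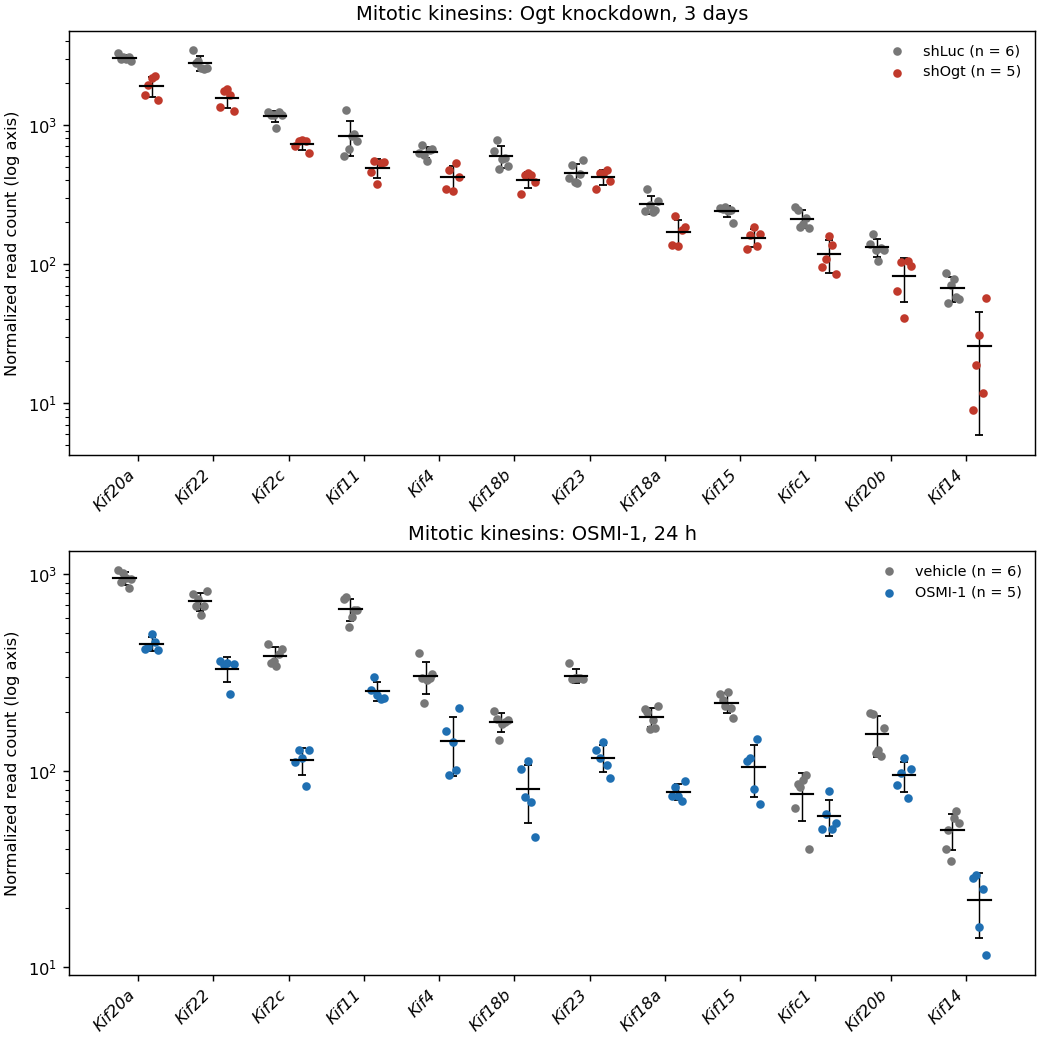
Normalized read count (log axis) of the 12 mitotic kinesins in each library of the knockdown arm (upper panel) and inhibitor arm (lower panel); points are libraries, bars the mean ± SD. Treated points lie below control points for every gene except Kif14, Kif20b and Kif23 in the upper panel and Kifc1 in the lower one, where they overlap.

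The chromosome-arm motors are Kif22 and Kif4. Kif22 binds DNA and pushes chromosome arms toward the spindle equator. It held 2509 to 3429.8 counts (median 2685) over the 6 shLuc libraries, and the shOgt libraries, in the order of replicates 1, 2, 3, 5 and 6, held 1354, 1757, 1822, 1632 and 1258. The highest shOgt library thus lay well under the lowest shLuc library, and the log2 fold change was -0.84 ± 0.10 (SE; limma adjusted p = 3.4e-06), among the mitotic kinesins the smallest p in that arm. In the inhibitor arm the vehicle libraries held 620.5 to 822 counts (median 721), and OSMI-1 replicates 1, 2, 4, 5 and 6 held 360.0, 345, 352, 247 and 351. Replicate 5 was the lowest of these and stood apart from the other 4, and all 5 lay under the vehicle range (log2 fold change -1.14 ± 0.10, limma adjusted p = 1.5e-08). Kif4, a chromokinesin that also shortens the overlapping microtubules of the midzone, held 552 to 719 counts (median 644) in shLuc and 346, 477, 333, 532 and 419 in shOgt. Its groups did not overlap, by a narrow margin (log2 fold change -0.62 ± 0.12, limma adjusted p = 6e-04). The vehicle libraries held 222 to 399 counts (median 295) and the OSMI-1 libraries 159, 95.3, 140.3, 100.2 and 209.6, again apart, with a log2 fold change of -1.13 ± 0.17 (limma adjusted p = 2.9e-05). Reads of Kif4 may be shared with its pseudogene Kif4-ps, which was at 0 except for up to 8.32 counts in the knockdown arm.

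Kif11, Kif15 and Kifc1 set the length and polarity of the spindle. Kif11 (Eg5) slides antiparallel microtubules to separate the poles and is the target of antimitotic drugs such as monastrol. Its shLuc libraries held 594 to 1272 counts (median 796), replicate 2 being the highest, and its shOgt libraries 458, 550.4, 377, 528 and 543. No shOgt library reached the lowest shLuc library (log2 fold change -0.73 ± 0.15, limma adjusted p = 0.0011). After OSMI-1 the groups were farther apart: vehicle held 538 to 764 counts (median 657), OSMI-1 held 259, 299, 244, 230.3 and 235, and the log2 fold change was -1.38 ± 0.10 (limma adjusted p = 5e-10). Kif15 works beside Kif11 in keeping the spindle bipolar. It held 196 to 258 counts (median 246) in shLuc and 128, 162, 185, 134 and 165 in shOgt (log2 fold change -0.64 ± 0.14, limma adjusted p = 0.0013). With vehicle it held 185 to 252 counts (median 221) and with OSMI-1 112, 117, 80.5, 144 and 67.6 (log2 fold change -1.13 ± 0.16, limma adjusted p = 1.4e-05), and the groups were apart in both arms.

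Kifc1, the minus-end-directed motor that pulls poles together against Kif11, was the mitotic kinesin whose fall was called after knockdown and not after OSMI-1. The shLuc libraries held 182 to 255 counts (median 204) and the shOgt libraries 95.2, 109, 159.5, 137 and 85.3, all 5 under the shLuc range (log2 fold change -0.88 ± 0.17, limma adjusted p = 0.00061). In the inhibitor arm the vehicle libraries held 40.0 to 95.5 counts (median 84.1), replicate 6 being the lowest, and the OSMI-1 libraries 50.1, 59.8, 78.7, 50.1 and 53.8. These groups overlapped, and the log2 fold change of -0.34 ± 0.21 was not called (limma adjusted p = 0.26); without vehicle replicate 6 it was (adjusted p = 0.046). The difference between the arms, 0.53 ± 0.28 on the log2 scale, did not pass either (limma adjusted p = 0.18). Kifc5b, a near copy of Kifc1 whose reads may not be separable from it, held 29.8 ± 13.9 counts in shLuc, 19.6 ± 11.9 in shOgt, 9.75 ± 4.90 in vehicle and 5.31 ± 2.09 in OSMI-1.

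Kif2c, Kif18a and Kif18b act at microtubule ends. Kif2c (MCAK) strips tubulin from microtubule ends and corrects wrong kinetochore attachments. It held 949 to 1249 counts (median 1181) in shLuc, where replicate 4 was the lowest, and 707, 761, 776, 766 and 624 in shOgt. All shOgt libraries lay below that lowest value (log2 fold change -0.67 ± 0.09, limma adjusted p = 1.1e-05). After OSMI-1 it had the lowest log2 fold change of the 30 kinesins tested. Counts went from 341 to 443 counts (median 378) in vehicle to 111, 127, 116, 83.5 and 127 (means 385 ± 39.3 and 113 ± 17.8; log2 fold change -1.77 ± 0.12, limma adjusted p = 1.3e-10). Kif18a caps kinetochore microtubules and damps the swinging of chromosomes at the equator. Its shLuc libraries held 237 to 343 counts (median 255) and its shOgt libraries 136, 222, 134, 176 and 183 (log2 fold change -0.67 ± 0.15, limma adjusted p = 0.0021). Vehicle libraries held 162 to 213 counts (median 189.8) against 73.8, 82.1, 74.4, 70.4 and 88.2 with OSMI-1, a tight group (log2 fold change -1.25 ± 0.13, limma adjusted p = 1.4e-07). The Kif18a groups did not overlap in either arm. Among the 11 promoters, that of Kif18a alone held neither motif, and the part of the motifs in these falls was not tested.

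Kif18b limits the length of astral microtubules. It held 484 to 774 counts (median 574) in shLuc and 320.2, 433, 447, 433 and 388 in shOgt, with no overlap (log2 fold change -0.55 ± 0.12, limma adjusted p = 0.0023). In vehicle it held 142 to 202 counts (median 179) and with OSMI-1 102, 73.0, 111, 69.2 and 45.8 (log2 fold change -1.18 ± 0.18, limma adjusted p = 3.3e-05). The OSMI-1 libraries varied more than 2-fold among themselves, yet the highest stayed below the lowest vehicle library.

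Kif20a, Kif20b, Kif23 and Kif14 work in the midzone and in cytokinesis. Kif20a (MKLP2) brings the chromosomal passenger complex to the midzone. It held 2886 to 3264 counts (median 3017) in shLuc and 1651, 1924, 2167, 2255 and 1508 in shOgt (log2 fold change -0.69 ± 0.09, limma adjusted p = 9.6e-06). Replicate 6 was the lowest shOgt library and all 5 lay below shLuc. In the inhibitor arm the vehicle libraries held 852 to 1046 counts (median 947) and the OSMI-1 libraries 416, 428, 498, 452 and 411 (log2 fold change -1.11 ± 0.08, limma adjusted p = 3.3e-10). Kif20b, which has a part in abscission and in the divisions of cortical progenitors, was less separated. It held 106 to 165 counts (median 128) in shLuc and 64.0, 103, 40.9, 106 and 96.8 in shOgt, where replicate 3 was lowest and replicate 5 stood level with the lowest shLuc library (log2 fold change -0.75 ± 0.23, limma adjusted p = 0.015). Vehicle libraries held 118 to 196 counts (median 146) and OSMI-1 libraries 84.8, 97.3, 115, 72.8 and 102 (log2 fold change -0.69 ± 0.16, limma adjusted p = 0.0034).

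Kif23 (MKLP1), the motor subunit of centralspindlin, behaved differently in the 2 arms. It held 382 to 561 counts (median 429) in shLuc and 347, 451, 440.4, 476 and 393 in shOgt, with broad overlap (means 451 ± 73.5 and 421 ± 51.3; log2 fold change -0.09 ± 0.12, limma adjusted p = 0.61). After OSMI-1 the same gene went from 292 to 353 counts (median 296) in vehicle to 127, 116, 139.9, 107 and 91.6 (means 305 ± 23.8 and 116 ± 18.4; log2 fold change -1.39 ± 0.12, limma adjusted p = 6e-09). Vehicle replicate 1 was high and the other 5 vehicle libraries agreed closely. Racgap1, which encodes the other centralspindlin subunit, was called lower in both arms, from 2876 ± 187 to 1610.4 ± 185 after knockdown (log2 fold change -0.84 ± 0.08, limma adjusted p = 2.1e-07) and from 1268 ± 108 to 473 ± 30.7 after OSMI-1 (-1.42 ± 0.08, adjusted p = 4e-12). Kif14, which recruits citron kinase to the midbody, was the lowest mitotic kinesin per kilobase in every group. It held 52.2 to 86.8 counts (median 64.0) in shLuc and 8.89, 18.7, 31.1, 11.7 and 57.2 in shOgt. Replicate 6 lay inside the shLuc range and the other 4 below it, and the log2 fold change of -1.63 ± 0.37 was the largest fall among the mitotic kinesins in that arm, with the widest error (limma adjusted p = 0.0022). For the inhibitor, vehicle held 34.8 to 62.0 counts (median 52.0) and OSMI-1 28.3, 29.4, 15.9, 25.1 and 11.5 (log2 fold change -1.19 ± 0.27, limma adjusted p = 0.0018).

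**Figure D3:**
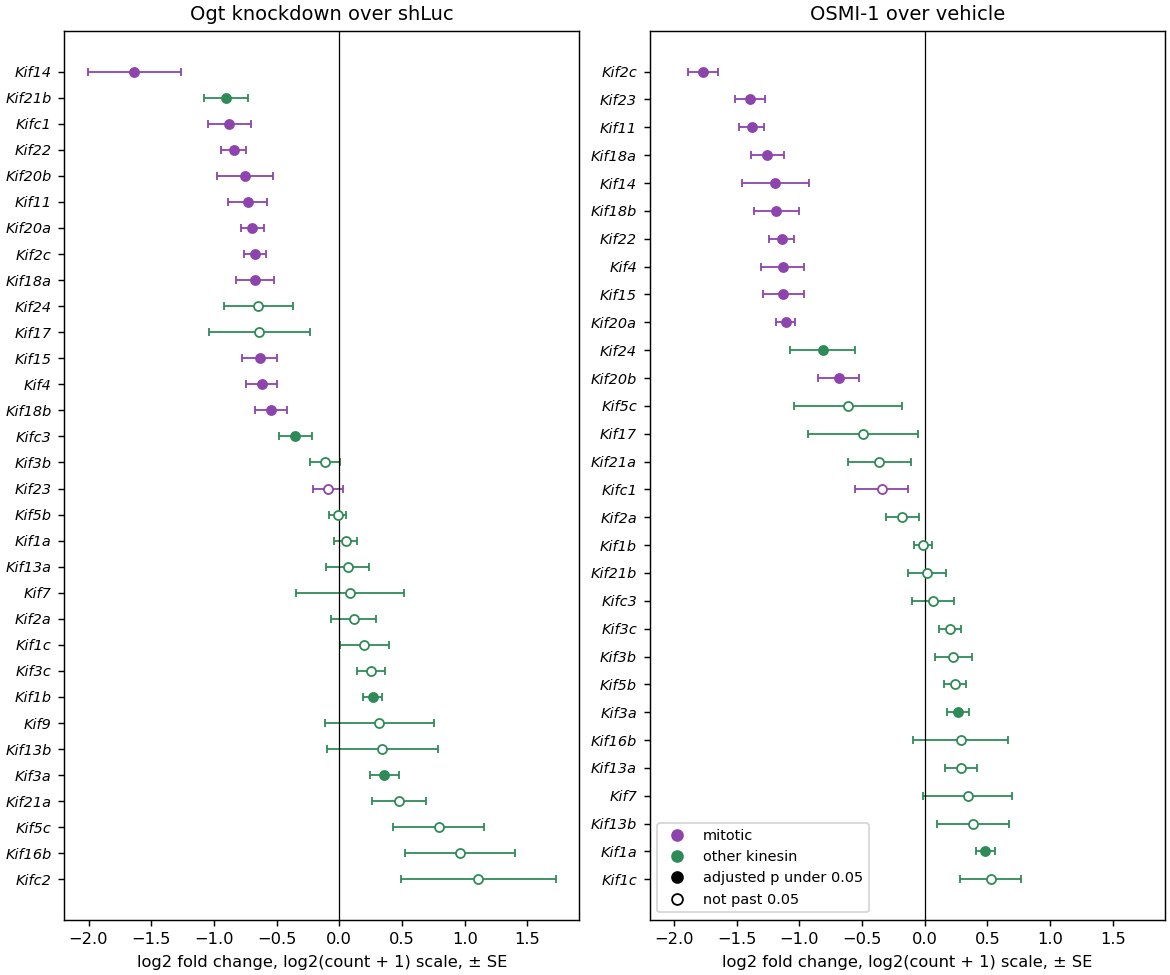
Log2 fold change ± SE of each kinesin that passed the filter on low counts, after Ogt knockdown (32 genes, left) and after OSMI-1 (30 genes, right); purple marks mitotic and green other kinesins, filled points an adjusted p under 0.05. Filled purple points lie left of 0 for 11 of 12 mitotic kinesins in each panel, and most green points are hollow.

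Among the other kinesins calls were few and went both ways. Of 28, 20 passed the filter in the knockdown arm, where 2 were called lower and 2 higher, and 18 in the inhibitor arm, where 1 was called lower and 2 higher. Set beside the 16.4% lower and 15.4% higher of all genes after knockdown, and the 13.2% and 11.6% after OSMI-1, these counts do not stand above the background. Since a gene that is high in 1 group can pass the filter through that group, the passing members do not stand for all 28. Their median log2 fold change was 0.16 after knockdown (0.10 without shOgt replicate 6 and 0.24 without shLuc replicate 3) and 0.22 after OSMI-1 (0.11 without OSMI-1 replicate 6). None was lower in both arms, and Kif3a alone was called higher in both, where 2.72% of all genes tested in both were; each of its calls is lost when certain single libraries are left out.

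Kif3a is the ciliary kinesin-2 motor that carries intraflagellar transport trains to the tip of the cilium, together with Kif3b and the accessory subunit Kifap3. It held 369 to 547 counts (median 496) in shLuc and 551, 578, 624, 579 and 739 in shOgt, every shOgt library above every shLuc library (log2 fold change 0.36 ± 0.11, limma adjusted p = 0.022). The call was lost without shOgt replicate 6 (adjusted p = 0.069). Vehicle libraries held 341 to 388 counts (median 367) and OSMI-1 libraries 423, 415, 394, 507 and 465, again with no overlap (log2 fold change 0.27 ± 0.09, limma adjusted p = 0.028), a call lost without vehicle replicate 5 or OSMI-1 replicate 5 or 6 (adjusted p 0.062 to 0.09). Its partner Kif3b was not called, with control and treated means (± SD, in this order here and for the kinesins that follow) of 322 ± 32.8 and 298 ± 46.2 after knockdown and 123 ± 23.9 and 143 ± 18.6 with OSMI-1. Kifap3 went opposite ways, from 405 ± 69.4 to 280.2 ± 37.3 after knockdown (log2 fold change -0.52 ± 0.13, limma adjusted p = 0.0042) and from 270.1 ± 35.6 to 337 ± 31.9 after OSMI-1 (0.32 ± 0.10, adjusted p = 0.026). Kif3c, which pairs with Kif3a and is enriched in neurons, held 631 ± 104 and 747 ± 78.4 after knockdown. With OSMI-1 it held 415 ± 29.7 and 479.8 ± 52.6, and it was not called in either arm. Nor was Kif17, the homodimeric member, at 41.6 ± 23.4 and 26.1 ± 14.2 after knockdown and 16.9 ± 6.39 and 13.6 ± 9.04 with OSMI-1.

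Among the kinesin-3 motors, which move synaptic vesicle precursors, mitochondria and endosomes, a different gene was called in each arm. Kif1a held 591 to 737 counts (median 673) in vehicle and 955, 859.6, 907, 933 and 979 in OSMI-1, all above vehicle (means 665 ± 55.2 and 927 ± 46.2; log2 fold change 0.48 ± 0.08, limma adjusted p = 5e-05). After knockdown it was not called, with 942 to 1258 counts (median 1110.2) in shLuc and 1335, 1025, 1122, 1139.6 and 1188 in shOgt (log2 fold change 0.05 ± 0.09, limma adjusted p = 0.72). The reverse held for Kif1b: shLuc held 1015 to 1257 counts (median 1198) and shOgt 1411, 1374, 1407, 1428 and 1393, a tight group above all shLuc libraries (log2 fold change 0.27 ± 0.07, limma adjusted p = 0.0087). With vehicle Kif1b held 845 to 984 counts (median 938) and with OSMI-1 969, 920.4, 834, 962 and 888, fully overlapping (log2 fold change -0.01 ± 0.07, limma adjusted p = 0.92). Kif1c, Kif13a, Kif13b and Kif16b were called in neither arm. Their means after knockdown were 61.6 ± 7.11 and 71.0 ± 8.64 for Kif1c, 217 ± 39.4 and 231 ± 59.7 for Kif13a, 24.2 ± 11.5 and 33.1 ± 15.5 for Kif13b and 20.7 ± 12.5 and 34.9 ± 9.34 for Kif16b. After OSMI-1 they were 30.3 ± 9.17 and 43.1 ± 8.14 for Kif1c, 113 ± 11.7 and 138 ± 12.7 for Kif13a, 20.4 ± 5.19 and 27.5 ± 8.58 for Kif13b and 15.1 ± 5.13 and 20.1 ± 10.7 for Kif16b.

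Kif21b, a kinesin-4 relative of Kif4 that works as a transport motor and restrains microtubule growth in neurons, was called lower after knockdown. The shLuc libraries held 148 to 229 counts (median 194) and the shOgt libraries 88.9, 109, 72.0, 136 and 104, all below shLuc (means 189.6 ± 30.6 and 102 ± 23.7; log2 fold change -0.91 ± 0.18, limma adjusted p = 0.00055). With the inhibitor, vehicle held 99.1 to 161 counts (median 136) and OSMI-1 115, 113, 165, 150.3 and 123, overlapping throughout (log2 fold change 0.02 ± 0.15, limma adjusted p = 0.95). Its paralogue Kif21a was not called, at 53.9 ± 6.61 and 76.8 ± 20.7 after knockdown and 55.8 ± 17.5 and 42.5 ± 11.4 with OSMI-1. Kif7, the kinesin-4 member that organizes Hedgehog signalling at the cilium tip, spread widely within groups, at 59.9 ± 42.3 and 57.3 ± 29.9 after knockdown and 13.3 ± 4.50 and 17.7 ± 7.35 with OSMI-1, and was not called.

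Kifc3, a minus-end motor of cell junctions, was called lower after knockdown by a small margin. It held 434 to 615 counts (median 538) in shLuc and 446, 323, 528, 479 and 338 in shOgt, overlapping (log2 fold change -0.35 ± 0.13, limma adjusted p = 0.048), and the call was lost with edgeR, without the filter and without any of 8 single libraries. With vehicle it held 104 to 196 counts (median 166) and with OSMI-1 199.6, 189, 192, 106 and 166 (log2 fold change 0.06 ± 0.17, limma adjusted p = 0.82). Kif24, a kinesin-13 of the centriole that holds back cilium assembly, was called lower after OSMI-1. Vehicle held 23.9 to 70.5 counts (median 36.5) and OSMI-1 21.0, 18.2, 24.5, 20.3 and 22.9, and only the highest OSMI-1 library overlapped vehicle (log2 fold change -0.81 ± 0.26, limma adjusted p = 0.025). Vehicle replicate 1 was the highest by far, and without it, or without OSMI-1 replicate 2, the call was lost (adjusted p 0.053 to 0.067). After knockdown Kif24 held 54.4 to 90.6 counts (median 64.7) in shLuc and 32.9, 82.9, 50.8, 26.7 and 34.3 in shOgt, with replicate 2 inside the shLuc range (log2 fold change -0.65 ± 0.27, limma adjusted p = 0.08). Without shOgt replicate 2 it was called (adjusted p = 0.015). Kif2a, a kinesin-13 of spindle poles and neuronal microtubules that the mitotic list does not hold, was not called, at 105 ± 19.3 and 113 ± 22.1 after knockdown and 141 ± 13.4 and 125 ± 19.3 with OSMI-1.

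**Figure D4:**
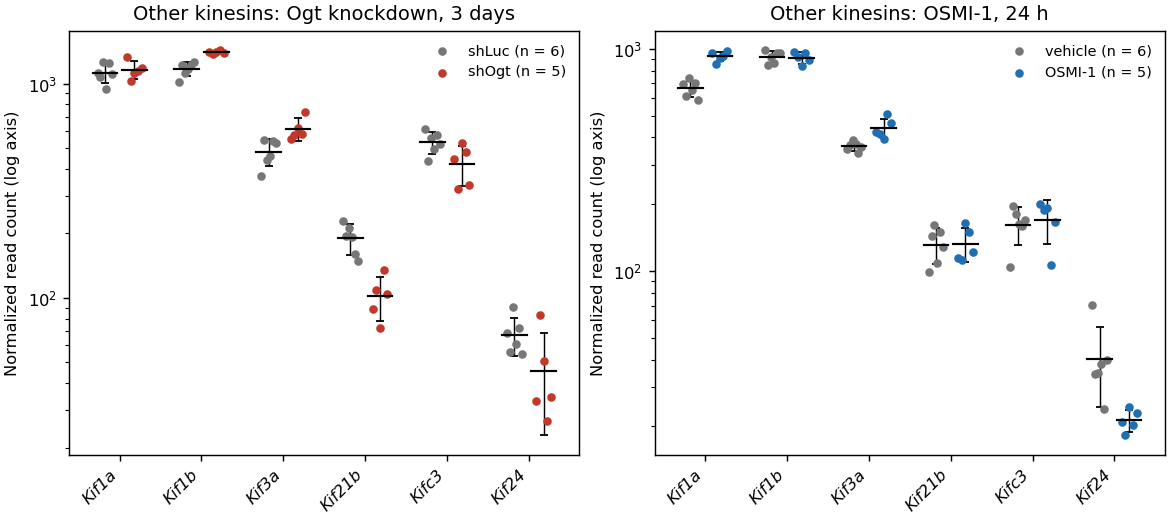
Normalized read count (log axis) of the 6 other kinesins called in at least 1 arm, in each library of the knockdown arm (left) and inhibitor arm (right); points are libraries, bars the mean ± SD. Kif21b is separated in the left panel and overlaps in the right one, Kif1a the other way round, and Kif3a is higher in treated libraries in both.

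The kinesin-1 heavy chain Kif5b, the general anterograde motor of most cells, was not called in either arm. It held 2599 to 2965 counts (median 2763) in shLuc and 2643, 2771, 2421, 2837 and 3007 in shOgt (log2 fold change -0.01 ± 0.07, limma adjusted p = 0.9). With vehicle it held 1339.9 to 1956 counts (median 1599) and with OSMI-1 1755, 1686, 1813, 2289 and 2097, a log2 fold change of 0.24 ± 0.09 just short of the threshold (limma adjusted p = 0.056). The neuronal heavy chain Kif5c was low, at 18.1 ± 8.52 and 29.8 ± 4.89 after knockdown and 13.4 ± 7.04 and 8.30 ± 3.98 with OSMI-1, and not called. Kif9 and Kifc2 passed the filter in the knockdown arm only. Kif9, a motor of motile cilia, held 15 ± 7.12 and 18.1 ± 6.57 and Kifc2 held 6.85 ± 5.04 and 15.2 ± 9.16, neither called. In the inhibitor arm these 2 lay under the filter, Kif9 between 1.02 and 18.3 counts and Kifc2 between 0 and 11.9.

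A further 8 kinesins were under the filter in both arms. Kif12 was at 0 in all 22 libraries, and Kif2b was at 0 throughout the inhibitor arm and reached 3.15 counts in the knockdown arm. The neuronal heavy chain Kif5a ranged from 0 to 35.3 counts, Kif6 and Kif19a, known from motile cilia, from 0 to 13.4 and from 0 to 4.93, Kif26a from 0 to 12.1, Kif26b from 0 to 12.5 and Kif27 from 0 to 4.73. Without the filter, Kif6 and Kif26b were called higher after knockdown. Kif6 held 0 to 5.6 counts in shLuc and 13.3, 5.92, 7.06, 10.7 and 6.24 in shOgt, all above shLuc (log2 fold change 2.11 ± 0.60, limma adjusted p = 0.021), and Kif26b held 0 to 2.85 in shLuc and 4.45, 5.92, 9.88, 0 and 12.5 in shOgt (2.00 ± 0.63, adjusted p = 0.036). These values rest on at most 15 reads per library. Markers of multiciliated ependymal cells were scarce as well: Tmem212 and Pifo were at 0 in all libraries, and the list of 8 summed to 80.7 to 176 counts in shLuc, 75.0 to 143 in shOgt, 95.2 to 180.1 in vehicle and 65.3 to 86.1 in OSMI-1. Foxj1, a member of that list, was called lower after OSMI-1 (126 ± 32.2 to 53.3 ± 10.9, limma adjusted p = 6.6e-05).

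Whether the arms differed was tested in 1 limma fit over all 22 libraries, as the log2 fold change after OSMI-1 minus that after knockdown. The arms differ in agent, time, virus, depth and the Rn45s share of reads, and have separate controls. Of the kinesins tested in both arms, 9 passed, 6 of the 12 mitotic and 3 of the 18 other, where 22.9% of 11269 genes passed. Among these 9, Kif23 had the widest gap, -1.30 ± 0.17 (limma adjusted p = 5.8e-07), followed by Kif2c at -1.10 ± 0.15 (adjusted p = 1.2e-06). Kif11 at -0.65 ± 0.19 (limma adjusted p = 0.014), Kif18b at -0.64 ± 0.23 (adjusted p = 0.042), Kif18a at -0.58 ± 0.20 (adjusted p = 0.029) and Kif20a at -0.42 ± 0.12 (adjusted p = 0.011) also fell further after OSMI-1. The Kif18b and Kif18a differences lost the call without 16 and 2 of the 22 libraries in turn. On the transport side, Kif21b differed by 0.92 ± 0.23 (limma adjusted p = 0.0039), Kif1a by 0.43 ± 0.12 (adjusted p = 0.0065) and Kif1b by -0.28 ± 0.10 (adjusted p = 0.036, lost without any of 9 single libraries). For Kif14, Kif20b and Kif22, called lower in both arms, the differences of 0.44 ± 0.47, 0.07 ± 0.29 and -0.30 ± 0.15 did not pass (limma adjusted p = 0.55, 0.9 and 0.15). Nor did Kif5c, a gene of low counts, at -1.40 ± 0.55 (limma adjusted p = 0.065).

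**Figure D5:**
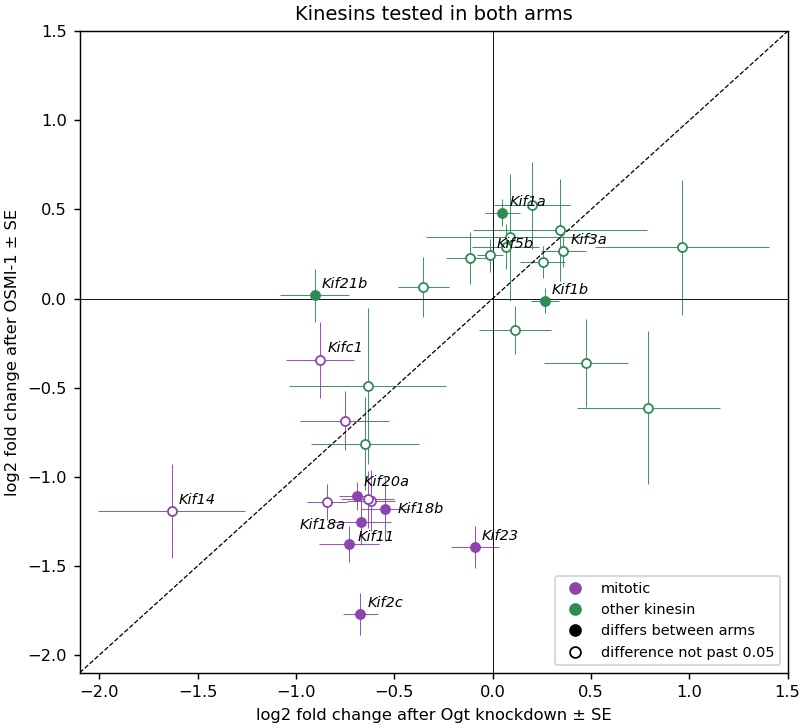
Log2 fold change ± SE after OSMI-1 (y axis) against that after Ogt knockdown (x axis) for the 30 kinesins tested in both arms; purple marks mitotic and green other kinesins, filled points a difference between arms with adjusted p under 0.05, the dashed line equal changes. Among filled points, Kif23 and Kif2c lie farthest below the line, and Kif21b and Kif1a lie above it; the hollow Kif5c lies lower still, with a wide error.

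The mitotic share of kinesin RNA was lower in every treated library than in any control library of its arm. The 12 mitotic genes took 55.2 to 59.3% of all kinesin counts in shLuc libraries and 39.4 to 46.7% in shOgt, and 45.1 to 47.8% in vehicle and 21.6 to 26.7% in OSMI-1. Summed counts of the 28 others were 7587 to 8211 in shLuc and 7935 to 8791 in shOgt, and 4717 to 5179 in vehicle and 5273 to 6011 in OSMI-1. Per kilobase of merged exon (GENCODE M21), which allows genes to be compared, Kif20a ranked first in shLuc at 700.4 ± 30.5 counts per kb, above Kif22 at 569 ± 69.7, Kif5b at 346 ± 16.4 and Kif2c at 266 ± 24.8. In shOgt the order at the top was Kif20a at 438 ± 74.1, Kif5b at 343 ± 27.5 and Kif22 at 319 ± 50.6, of which the last 2 do not differ beyond their spread. Vehicle libraries had Kif20a at 219.8 ± 16.1 and Kif5b at 204 ± 26.7, within their spread of each other. With OSMI-1, Kif5b led at 242 ± 32.0, followed by Kif3a at 123 ± 12.6, Kif20a at 102 ± 8.17 and Kif1a at 99.3 ± 4.95, the last pair within their spread, and Kif2c went from 88.2 ± 9.0 in vehicle to 25.9 ± 4.08 counts per kb.

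The partners of the mitotic kinesins moved in the same direction. Of 18 spindle and midzone genes, 16 were called lower after knockdown and 16 after OSMI-1, none higher, where 16.4% and 13.2% of all genes tested were lower, and their median log2 fold changes were -0.65 and -1.31. Plk1, a mitotic kinase that Kif20a brings to the midzone, went from 2974 ± 167 to 1661 ± 158 counts after knockdown and from 1152 ± 95.8 to 371 ± 32.3 after OSMI-1. Prc1, which bundles the midzone microtubules that Kif4 shortens, went from 2146 ± 182 to 1392 ± 158 and from 1035 ± 93.7 to 394 ± 30.8. Cenpe, the kinetochore kinesin outside the naming rule, was lower too, from 271 ± 66.4 to 182 ± 60.5 after knockdown (log2 fold change -0.62 ± 0.22, limma adjusted p = 0.034) and from 322 ± 78.6 to 160.2 ± 26.9 after OSMI-1 (-0.98 ± 0.15, adjusted p = 2.7e-05). Not called in either arm were Ckap5, a microtubule polymerase, at 1212 ± 233 and 1014 ± 105 after knockdown and 736 ± 105 and 617 ± 70.9 with OSMI-1, and Numa1, which focuses spindle poles, at 808 ± 128 and 789 ± 79.1 after knockdown and 382 ± 39.6 and 354 ± 33.8 with OSMI-1. Cenpe, Ckap5 and Numa1 were picked out after their values had been seen.

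The partners of the transport kinesins were called in both directions. In the counts that follow, the background after knockdown is 16.4% of all genes lower and 15.4% higher, and after OSMI-1 13.2% lower and 11.6% higher. Of 15 tested light chains and adaptors of transport kinesins, 4 were called lower and 1 higher after knockdown, and 1 lower and 5 higher after OSMI-1, with medians of -0.09 and 0.16. Klc1, the light chain of Kif5b, was higher after knockdown, from 2435 ± 250 to 3012 ± 252 counts (log2 fold change 0.31 ± 0.08, limma adjusted p = 0.0053). After OSMI-1 Klc1 was not called, at 870 ± 71.5 in vehicle and 972 ± 99.8 in OSMI-1 (0.16 ± 0.08, limma adjusted p = 0.17). Rab3a, a vesicle protein carried by Kif1a, was lower after knockdown, from 740.0 ± 91.5 to 613 ± 53.9 (-0.27 ± 0.10, limma adjusted p = 0.045). It was higher after OSMI-1, from 298 ± 39.4 to 397 ± 27.5 (0.42 ± 0.10, limma adjusted p = 0.0034). Among dynein and dynactin genes, which drive traffic the other way, 2 of 20 were lower and 5 higher after knockdown, and 1 of 19 lower and 5 higher after OSMI-1. Of 21 genes for ciliary transport and Hedgehog signalling, the setting of Kif3a and Kif7, 1 was lower and 4 higher after knockdown, and 2 lower and 1 higher after OSMI-1. Wdr35, a subunit of the retrograde ciliary train, was the 1 gene of that list called higher in both arms. It went from 663 ± 56.1 to 815 ± 65.1 and from 367 ± 67.8 to 469 ± 41.1. Ift122, the gene of that list with the highest counts, was called in neither arm (limma adjusted p = 0.74 after knockdown and 0.21 after OSMI-1).

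Because Kif1a, Kif3c, Kif5a, Kif5c and Kif21b are enriched in neurons, neuronal markers were read beside them. Of 11, 5 passed the filter: after knockdown 1 was called lower and 2 higher, and after OSMI-1 3 lower and 1 higher, against 16.4% of all genes lower and 15.4% higher after knockdown and 13.2% and 11.6% after OSMI-1, the background also for the glial counts that follow. Their sum ran from 3457 to 4155 counts in shLuc, 3107 to 3588 in shOgt, 1863 to 2377 in vehicle and 2210 to 3066 in OSMI-1, most of it Map2. Map2, of dendritic microtubules, was called lower after knockdown (3375 ± 257 to 2576 ± 163) and higher after OSMI-1 (1862 ± 189 to 2459.8 ± 379). The synaptic vesicle gene Syt1 went the other way, from 46.4 ± 19.4 to 261 ± 58.4 after knockdown (log2 fold change 2.52 ± 0.23, limma adjusted p = 1.7e-07) and from 45.2 ± 7.58 to 28.3 ± 4.29 after OSMI-1 (-0.65 ± 0.22, adjusted p = 0.03). Tubb3 did so too (235 ± 38.0 to 397 ± 25.8, and 88.5 ± 14.1 to 50.2 ± 6.02), and Snap25 was called lower after OSMI-1, from 30.1 ± 6.85 to 11.7 ± 9.70. Calls among the neuronal markers thus went both ways in each arm. No neuronal marker was at 0 in every library, but the mean of Dcx was at most 1.97 counts and that of Rbfox3 at most 6.56 in any group. Glial markers moved too: the 8 oligodendrocyte-lineage genes summed to 17774 to 20743 counts in shLuc and 10014 to 11543 in shOgt, with 3 of 4 tested called lower, and to 9716 to 12283 in vehicle and 10943 to 14663 in OSMI-1, with 1 of 5 lower and 1 higher. The 7 astrocyte genes summed to 14977 to 16292 in shLuc and 10818 to 12344 in shOgt, with 2 of 5 tested called lower, and to 6675 to 7462 in vehicle and 4660.4 to 5141 in OSMI-1, with 2 of 4 lower and 1 higher. Slc1a3 and Aldoc make up most of these sums, and the gene called higher after OSMI-1 was S100b (58.3 ± 13.7 to 142 ± 33.3, log2 fold change 1.28 ± 0.19, limma adjusted p = 2.5e-05). The part of these markers in the kinesin values was not tested.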

How the data were processed

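Poly(A) RNA was measured in 22 libraries, grouped by the sample labels. Library preparation was strand-specific per the labels' protocols but Smart-Seq2 per the series design text, and which one applies is not known. STAR, RSEM and DESeq2 were used, per the submitters' processing notes, which name a human build (hg38) although the tables carry mouse symbols, so how reads of near-identical kinesin genes were assigned is not given in the sources used here.

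Per the file headers, each of the 2 deposited tables holds DESeq2-normalized counts for each library (the signal analysed here), the authors' log2 fold change, a Wald statistic (a score) and p-values. All values in the text come from the library columns. They were whole multiples of 1 step per library (within 0.001), which gave back the read counts.

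The main test was limma 3.58.1 (R 4.3.3) with a trended variance, applied to log2(normalized count + 1) in each arm, two-sided. The filter on low values was filterByExpr from edgeR, run on the reads given back, with a minimum count of 10 and a minimum total of 15, and Benjamini-Hochberg adjustment ran over all genes, with calls at 0.05. Fold changes are on this scale, where the pseudocount pulls low values toward no change and the averaging of logs can widen a change: Kif14 after knockdown was -1.63 here and -1.40 with edgeR and DESeq2. Reads within a library are not independent molecules, so read totals bound the counting error only. The arms were compared in 1 limma fit over both tables, which had been normalized separately; a difference in scale cancels within each arm. Alternatives were edgeR 4.0.16 quasi-likelihood and DESeq2 1.42.0 on the recovered reads, TMM scaling, pseudocounts of 0.5 and 5, no filter, the replicate block, and each library left out. Scripts were tested on simulated data.

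The members, partner lists, markers and motifs were chosen with earlier results of these data known. Values per library are given for the 12 mitotic kinesins and every other kinesin called in an arm, group means for the others above the filter, and ranges for those below. From a partner list at most 4 genes per arm with the highest counts were named, plus Ogt and Mki67; Cenpe, Ckap5, Numa1, Snap25, Kifap3 after knockdown, Kif5b library values, the near copies, Dcx and Rbfox3 were added after their values had been seen. Promoters came from the RefSeq table (GRCm38.p6), which gave none for Kif20a and 7 other kinesins, and exon lengths from GENCODE M21, in which all 40 symbols matched. These are not the authors' build and were used for sequence, motif and length only.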

Additional observations from a re-analysis of the deposited data

Results flagged for a closer look

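Single libraries stood apart from their group in 5 of 72 sets of kinesin values checked, by the gap to the nearest library against the range of the group; chance alone marks about 1 set in 20. Kif2c was lowest in shLuc replicate 4, at 949 counts, and Kif15 in shLuc replicate 6, at 196 counts. In vehicle replicate 1, Kif23 was highest at 353 counts and Kif24 at 70.5 counts. Kif22 was lowest in OSMI-1 replicate 5, at 247 counts. Of these, Kif24 is the one whose call depends on the library that stood apart.

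The log2 fold change after OSMI-1 minus that after knockdown passed the test of the difference itself for 9 kinesins. Among mitotic kinesins the difference was -1.30 for Kif23, -1.10 for Kif2c, -0.65 for Kif11, -0.64 for Kif18b, -0.58 for Kif18a and -0.42 for Kif20a. Among the others it was 0.92 for Kif21b, 0.43 for Kif1a and -0.28 for Kif1b. Agent, duration, virus, depth and the Rn45s share of reads all differ between the arms and cannot be told apart here.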

How the results depend on the processing

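The number of mitotic kinesins called lower was 11 in each arm under every alternative run, except 12 after OSMI-1 with vehicle replicate 6 left out, where Kifc1 joined. Over the named kinesins, leaving out 1 library gave 542 of 594 values with the same direction and side of the threshold, 41 that lost and 2 that gained a call, and 9 of changed sign; the other settings gave 299 of 306 the same and 7 that lost the call. The counts of other kinesins were less stable. Lower calls after knockdown (2) were 1 with edgeR, 1 without the filter and 1 to 2 leaving out a library; higher calls there (2) were 4 without the filter, which lets in Kif6 and Kif26b, and 1 to 3 leaving out a library. After OSMI-1, lower calls (1) were 0 without the filter and 0 to 1 leaving out a library, and higher calls (2) were 1 with the replicate block and 1 to 3 leaving out a library. The median log2 fold change of the other kinesins ranged from 0.10, without shOgt replicate 6, to 0.24, without shLuc replicate 3, after knockdown, and from 0.11, without OSMI-1 replicate 6, to 0.22 after OSMI-1. Sign changes with a library left out were confined to uncalled values: Kif1a after knockdown (-0.00174 to 0.0935), and after OSMI-1 Kif1b (-0.0376 to 0.0200), Kif21b (-0.0639 to 0.0786) and Kifc3 (-0.0584 to 0.224). The difference between arms of Kif18b was lost with edgeR and without the filter, and that of Kif1b with the replicate block. The cause was not tested. Replicate numbers did not pair the libraries: deviations of same-numbered libraries correlated between -0.10 and 0.16, and 1 of 10 treated libraries correlated best with its own number; with the block, the arms differed for 10 kinesins instead of 9, Kif3a lost its call after OSMI-1 (adjusted p = 0.058), which is the higher call lost above, and the other counts of kinesin calls in each arm stayed as they were.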
